A study of Mus musculus with 8 samples.

Results

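The proteasome is the cell's main protease for ubiquitin-tagged proteins, and 54 of the 53655 gene symbols in the count table fit its naming pattern, Psm followed by a letter from a to g and a number. They were measured in tuft cells, rare chemosensory cells of the gut epithelium, sorted from the small intestine of naïve mice that carried 1 Il25-RFP reporter allele and a Chat-GFP transgene (Il25-RFP/+;Chat-GFP(Tg+) in the labels). All cells were CD45-negative, EPCAM-positive and Il25-RFP-positive. The 4 Chat-pos libraries came from cells with the green choline acetyltransferase reporter, and the 4 Chat-neg libraries from cells of the same genotype without it. The labels give neither the age of the animals nor which animals a library came from, so each p-value speaks to variation among libraries, part of which may be technical.

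The barrel-shaped core particle (20S) is built of rings of alpha and beta subunits, and cuts proteins with 3 of its beta subunits, beta1, beta2 and beta5. A regulatory particle (19S), made of an ATPase ring and non-ATPase subunits, recognises ubiquitin, unfolds the substrate and feeds it into the core. Under interferon, and constantly in many immune cells, the 3 catalytic subunits are replaced by Psmb9, Psmb10 and Psmb8 to give the immunoproteasome, which yields peptides suited to MHC class I. The 54 symbols comprised 14 genes of the constitutive core, the 3 immunoproteasome genes, 17 genes of the 19S particle, 5 activators or inhibitors and 7 assembly chaperones. The remaining 8 were Psma8 and Psmb11, core subunits known from testis and thymus, and 6 symbols that match only by name or as copies.

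Depth differed between the groups. Counts in named genes ran from 1757401 to 2541955 in Chat-pos and from 87642 to 1176880 in Chat-neg, and Chat-neg replicate 1 was the shallowest library. That library held 360 proteasome counts, and 18 of the 46 tested members had 3 counts or fewer in it. All 12 tuft markers were detected, with a summed level of 24590 to 25564 CPM, counts per 1000000 scaled counts of tested genes, in Chat-pos. In Chat-neg they summed to 10261 to 18304 CPM, and 6 of them rose in Chat-pos, against 3.62% of all genes tested. Enterocyte markers, mostly Fabp1, summed to 33321 to 54910 CPM in Chat-pos and 21407 to 45814 CPM in Chat-neg. Crypt and cycling markers summed to 101 to 1039 CPM in Chat-pos and 97.5 to 982 CPM in Chat-neg. No marker of either list rose or fell. Markers of intraepithelial T cells summed to 459 CPM in Chat-pos replicate 2, to 13.9 to 21.2 CPM in the remaining Chat-pos samples and to 221 to 493 CPM in Chat-neg. Markers of Paneth cells reached 58709 and 31736 CPM in Chat-pos replicates 2 and 3, against 489 to 3523 CPM in the other 6 libraries. In sorted bulk samples, fewer cells of a type and less RNA per cell cannot be told apart.

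The proteasome as a whole took overlapping shares of the counts in both gates. Its genes made up 0.594%, 0.584%, 0.690% and 0.775% of named counts in Chat-pos replicates 1 to 4, and 0.411%, 0.582%, 0.692% and 0.681% in Chat-neg replicates 1 to 4. The groups overlapped, and the lowest value came from the shallow Chat-neg replicate 1. Of the 54 members, 46 passed the filter on low counts and were tested. Only Psmb9 passed the test, and it rose (1 of 46, 2.17%), against 3.62% of all 8919 genes tested that were higher and 6.49% called in either direction (edgeR's quasi-likelihood test, Benjamini-Hochberg adjusted p under 0.05). No member fell, against 2.87% of all genes that were lower, although 3 had a negative difference at an unadjusted p under 0.05. At that level 5 members were above 0, against 10.9% of all genes above and 9.88% below. No member was lower with DESeq2, and 1 (Psmd2) was with limma-voom. A difference that missed the threshold does not show that the gates were alike.

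The promoters of the 3 immunoproteasome genes and of Psme1, the genes on which the comparison turns, are printed from RefSeq on GRCm38.p6, from 250 bases before to 50 bases after each start. Capitals mark matches, on either strand, to the interferon-stimulated response element (GAAA, any 2 bases, GAAA), the gamma-activated site (TTCNNNGAA), the CCAAT box (CCAAT) and the GC box (GGGCGG); none of the matches overlap. Psmb9 lies at chr17:34187281-34187580 on the minus strand, Psmb8 at chr17:34197945-34198244 on the plus strand, Psmb10 at chr8:105938343-105938642 on the minus strand and Psme1 at chr14:55578244-55578543 on the plus strand.
Psmb9: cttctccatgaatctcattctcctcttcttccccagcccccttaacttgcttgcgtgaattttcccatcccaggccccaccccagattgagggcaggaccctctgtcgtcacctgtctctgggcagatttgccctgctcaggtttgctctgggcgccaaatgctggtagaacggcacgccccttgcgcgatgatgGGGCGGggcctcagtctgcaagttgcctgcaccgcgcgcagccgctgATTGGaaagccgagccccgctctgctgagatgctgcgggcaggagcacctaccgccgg
Psmb8: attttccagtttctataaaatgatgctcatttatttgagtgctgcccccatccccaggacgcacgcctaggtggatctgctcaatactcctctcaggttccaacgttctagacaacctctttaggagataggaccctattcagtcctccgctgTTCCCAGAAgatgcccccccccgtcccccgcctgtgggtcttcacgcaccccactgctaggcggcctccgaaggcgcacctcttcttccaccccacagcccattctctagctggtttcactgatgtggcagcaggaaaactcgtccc
Psmb10: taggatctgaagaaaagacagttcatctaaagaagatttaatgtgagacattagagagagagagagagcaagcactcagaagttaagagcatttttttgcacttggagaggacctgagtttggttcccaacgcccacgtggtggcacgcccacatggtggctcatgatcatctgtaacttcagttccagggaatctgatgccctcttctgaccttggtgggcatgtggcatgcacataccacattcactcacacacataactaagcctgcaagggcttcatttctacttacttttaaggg
Psme1: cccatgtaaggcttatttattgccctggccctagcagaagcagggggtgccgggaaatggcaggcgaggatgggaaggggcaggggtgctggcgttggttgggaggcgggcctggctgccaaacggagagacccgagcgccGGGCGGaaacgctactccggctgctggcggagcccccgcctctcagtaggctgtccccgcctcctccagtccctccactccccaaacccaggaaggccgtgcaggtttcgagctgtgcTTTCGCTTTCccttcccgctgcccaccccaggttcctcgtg

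In these windows Psmb8 held a gamma-activated site letter pattern, TTCCCAGAA, beginning 97 bases before the start. Each start is the RefSeq one, which lies inside the gene's span in the annotation used for lengths, not at its end. The distances hold for the RefSeq start only. Psme1 held the response element pattern as its reverse complement, TTTCGCTTTC, from base 10 after the start, and a GC box 109 bases before it. Psmb9 held a GC box 55 bases and a reversed CCAAT box 8 bases before the start, and Psmb10 held none of the 4 patterns. Of 42 members with a promoter in the table, 5 held the response element pattern (Psmb3, Psmd4, Psmd9, Psme1 and Psmg4) and 3 the gamma-activated site pattern (Psmb8, Psmd2 and Psmg1). Among all 32851 promoters of this length the shares were 3.44% and 8.30%. The CCAAT box stood in 15 of the 42 and in 37.4% of all promoters, and the GC box in 23 of the 42 and in 35.7%. The window of Psmb9 shares 275 of its 300 bases with that of Tap1, a peptide transporter gene read in the opposite direction, whose start lies 226 bases away.

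The immunoproteasome genes had the highest median difference of all classes in Chat-pos relative to Chat-neg. Every Chat-pos library was above every Chat-neg library for all 3 of them, against 8.58% of all genes tested. Their median log2 difference was 0.61, against -0.02 for all genes tested, 0.22 for the constitutive core and -0.06 for the 19S particle. Over the 18 alternatives the immunoproteasome median stayed above 0, at 0.49 to 0.84. The core median also stayed above 0, from 0.073 without Chat-pos replicate 4 to 0.46 with no filter. It was 0.095 under total count scaling and 0.12 without Chat-neg replicate 1. The immunoproteasome median was likewise highest with no filter (0.84), and it was lowest under total count scaling (0.49).

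Psmb9, the beta1i subunit, had 156, 133, 162 and 211 CPM in Chat-pos replicates 1 to 4, against 105, 77.7, 105 and 125 CPM in Chat-neg replicates 1 to 4. The Chat-pos libraries were all above the Chat-neg ones, with Chat-pos replicate 4 the highest. The log2 difference was 0.69 ± 0.21 (SE; edgeR's quasi-likelihood test, adjusted p = 0.0477), and means were 166 ± 32.9 CPM in Chat-pos libraries, against 103 ± 19.5 CPM in Chat-neg (mean ± SD over 4 libraries each). The call rested close to the threshold. It was lost with total count scaling (edgeR adjusted p = 0.102), with no filter (0.0566) and with a filter of at least 5 CPM in 4 libraries (0.0519). It was also lost in 6 of the 8 fits that left out a library, those without any of the Chat-pos replicates or without Chat-neg replicate 2 or 3, with log2 differences from 0.56 to 0.84 and adjusted p from 0.0385 to 0.256 over the 8 fits. Exons of Psmb9 share 212 bases with those of Tap1 on the other strand, and the libraries do not mark strand. Tap1 itself stood at 87.1, 41.7, 80.3 and 66.5 CPM in Chat-pos libraries, against 69.8, 43.3, 57.8 and 56.2 CPM in Chat-neg, overlapping groups with a log2 difference of 0.35 ± 0.26 (edgeR adjusted p = 0.489).

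Psmb8, the beta5i subunit, lies close to Psmb9 in the MHC region, at 34197721 to 34201454 on chromosome 17 of GRCm38, where Psmb9 spans 34181987 to 34187764. It had 304, 234, 285 and 255 CPM in Chat-pos libraries, against 175, 158, 194 and 176 CPM in Chat-neg. The groups did not overlap, yet Psmb8 missed the threshold, with a log2 difference of 0.61 ± 0.20 (edgeR adjusted p = 0.0579). It passed in 5 of the 18 alternatives, among them DESeq2 (adjusted p = 0.018), limma-voom (0.0389) and the fit without Chat-neg replicate 1 (0.027). That was the only 1 of the 8 fits with a library left out in which it passed, and edgeR adjusted p reached 0.23 in these. Psmb10, the beta2i subunit, had 377, 364, 367 and 419 CPM in Chat-pos libraries, against 198, 264, 326 and 337 CPM in Chat-neg. These groups were also apart, by a narrower gap, and the log2 difference of 0.40 ± 0.20 did not pass (edgeR adjusted p = 0.258).

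Markers of other cells were set beside these values. In Chat-pos replicates 1, 3 and 4, where T cell markers summed to 21.2, 16.5 and 13.9 CPM and Cd3e was at 0, Psmb9 stood at 156, 162 and 211 CPM. In Chat-pos replicate 2, with T cell markers at 459 CPM, it stood at 133 CPM. Cd74, an MHC class II chaperone and most of the summed level of the myeloid and B cell markers, had 98.9, 182, 455 and 445 CPM in Chat-pos replicates 1 to 4 and 221, 100.6, 70.8 and 96.3 CPM in Chat-neg. Chat-pos replicate 4 was high in both Cd74 and Psmb9, while Chat-pos replicates 1 and 3 had close values of Psmb9, 156 and 162 CPM, at the lowest and the highest level of Cd74 among Chat-pos libraries. The 7 goblet cell markers summed to 306 to 1571 CPM in Chat-pos libraries, against 512 to 5526 CPM in Chat-neg. Of them only Clca1 fell (-3.06 ± 0.55, edgeR adjusted p = 0.00978), against 2.87% of all genes tested. Clca1, Muc2 and Fcgbp were lower in every Chat-pos library, against 5.42% of all genes, and the last 2 did not pass. Tff3, Zg16 and Agr2 were below 0 with overlapping groups and did not pass. Spink4 was above 0 (0.37 ± 1.14, edgeR adjusted p = 0.905). Of the enteroendocrine markers, Sct was the only 1 of 6 tested, and it rose (0.85 ± 0.22, edgeR adjusted p = 0.0155). The rest were too low to be tested and averaged lower in Chat-pos than in Chat-neg. Chga had 4.97 against 8.41 CPM, Cck 1.56 against 3.82, Gcg 4.49 against 6.41 and Neurod1 0.703 against 7.04. Chgb had 1.18 against 88.7 CPM, with 345 CPM in Chat-neg replicate 4. Neurod1 was at 27.3 CPM in Chat-neg replicate 4 and at 0 in Chat-neg replicates 1 and 2. Cck was at 15.3 CPM in Chat-neg replicate 2 and at 0 in the other Chat-neg libraries. Whether Sct moved with the rest of its list was not tested. The part of other cell types in the immunoproteasome result was not tested. A fit without the 2 Chat-pos libraries rich in Paneth cell transcripts (replicates 2 and 3) was chosen after seeing the data. In it Psmb9 stood at 0.95 ± 0.27 (edgeR adjusted p = 0.0438) and was the only member called higher. Without replicate 2 alone or replicate 3 alone, Psmb9 did not pass.

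**Figure D1:**
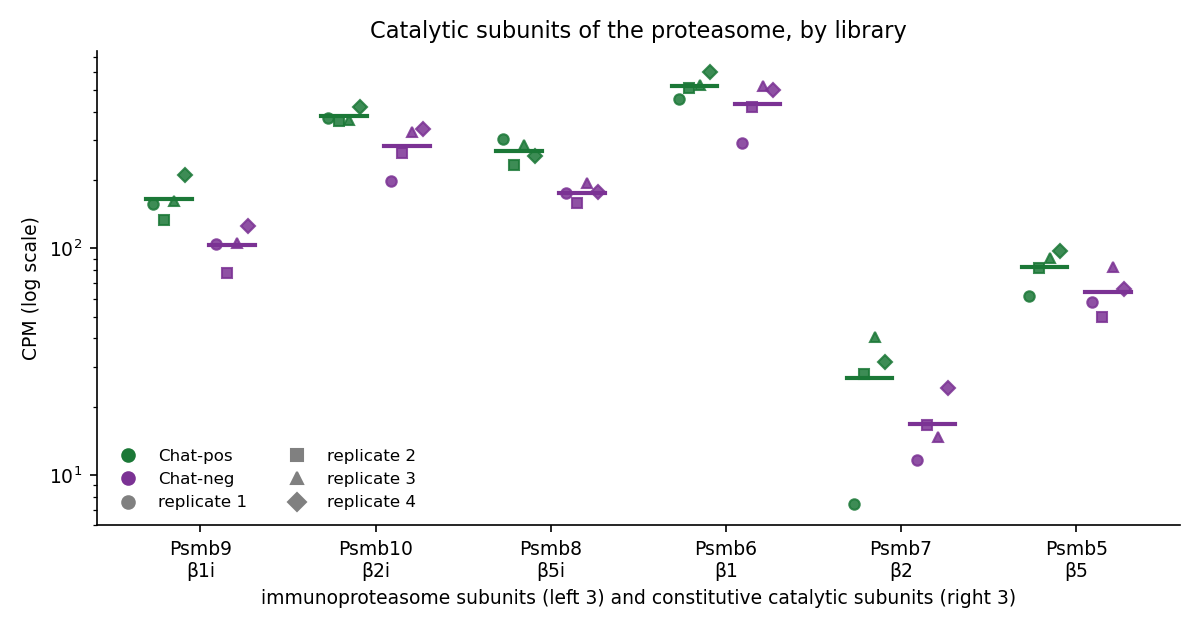
CPM on a log axis for the immunoproteasome subunits and their constitutive counterparts in each library; the horizontal bars are group means over 4 libraries and the marker shape gives the replicate number. For Psmb9, Psmb10 and Psmb8 all Chat-pos points lie above all Chat-neg points, while for Psmb6, Psmb7 and Psmb5 the groups overlap.

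The constitutive catalytic subunits did not pass the test. Psmb6, the beta1 subunit with caspase-like activity, had 454, 511, 526 and 597 CPM in Chat-pos libraries, against 291, 418, 520 and 499 CPM in Chat-neg (log2 difference 0.25 ± 0.21, edgeR adjusted p = 0.558). Psmb5, the beta5 subunit with chymotrypsin-like activity and the main target of bortezomib, had 61.6, 82.0, 90.7 and 97.6 CPM in Chat-pos libraries, against 58.2, 49.7, 82.9 and 65.8 CPM in Chat-neg (0.34 ± 0.24, edgeR adjusted p = 0.46). Both genes had overlapping groups. Psmb7, the beta2 subunit with trypsin-like activity, was scarce, at 7.47, 27.8, 40.6 and 31.6 CPM in Chat-pos libraries, against 11.6, 16.6, 14.7 and 24.1 CPM in Chat-neg. Its log2 difference of 0.62 ± 0.42 came with a wide error and did not pass (edgeR adjusted p = 0.437).

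Within each library the immunoproteasome member and its counterpart can be set against each other per kilobase of transcript, which needs no scaling between libraries. The 3 positions differed widely from each other and little between the gates. At beta2, Psmb10 made up 92.7 ± 3.72% of the pair with Psmb7 in Chat-pos and 93.7 ± 1.10% in Chat-neg (SD, n = 4 each). At beta5, Psmb8 made up 64.2 ± 6.22% of the pair with Psmb5 in Chat-pos and 60.5 ± 3.22% in Chat-neg. At beta1 the constitutive Psmb6 was the larger, and Psmb9 made up 15.7 ± 1.79% in Chat-pos and 12.7 ± 3.43% in Chat-neg. The gates overlapped at all 3 positions, and no test was made of these shares.

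The library values show where the overlap lay. At beta1 the Psmb9 share was 16.9%, 13.3%, 15.4% and 17.3% in Chat-pos and 17.5%, 9.89%, 10.7% and 12.9% in Chat-neg. The 17.5% of Chat-neg replicate 1 rested on 9 counts of Psmb9 and 25 of Psmb6, a count share of 26.5% with an exact Clopper-Pearson 95% interval of 12.9% to 44.4%, which covers counting error only. Without that library the Chat-neg mean was 11.2%, and the remaining Chat-neg values all lay below the Chat-pos ones. At beta2 the shares in Chat-neg replicates 1 to 4 rested on 1, 13, 17 and 15 counts of Psmb7. For Chat-neg replicate 1 the count share of 94.4% had an exact interval of 72.7% to 99.9%. At beta5 the Psmb8 share was 73.1%, 61.2%, 63.4% and 59.1% in Chat-pos and 62.4%, 63.7%, 56.4% and 59.7% in Chat-neg, with Chat-pos replicate 1 above the rest. By counts alone, with no correction for length, the means were 24.0% against 19.8% at beta1, 93.5% against 94.4% at beta2 and 76.3% against 73.5% at beta5, Chat-pos against Chat-neg.

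Copies and overlaps limit these shares. The processed pseudogene Gm3375 covers 88.4% of the Psmb5 transcript at 95% identity or more and held 1 count, and how the authors' counting treated reads that fit both is not given in the sources used here. Exons of Psmb7 share 405 bases with Nek6, and those of Psmb8 498 bases with Gm20496, on the other strand. The part of these overlaps in the counts was not tested.

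**Figure D2:**
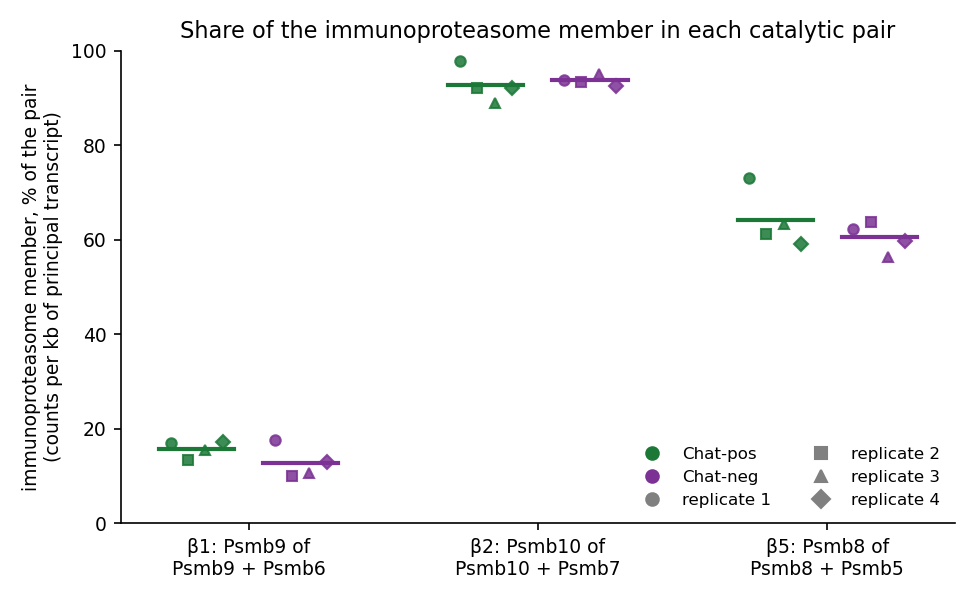
Share of the immunoproteasome member in each catalytic pair, in percent of counts per kb of principal transcript, by library; bars are means over 4 libraries. Psmb10 lies near the top at beta2 (92.7% and 93.7% on average in Chat-pos and Chat-neg), Psmb8 in the middle at beta5 and Psmb9 low at beta1, and the gates overlap at each position.

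The remaining core genes were spread around 0. Of the 14 constitutive core genes, 10 had a difference above 0 and 4 below it, from -0.57 to 0.62 on the log2 scale, and none passed. Over all genes tested, 48.5% were above 0. The alpha ring, which gates entry to the core, had 6 of 7 genes above 0, with a median of 0.23. Psma6 was its highest member, at 429, 395, 369 and 581 CPM in Chat-pos libraries, against 186, 349, 371 and 430 CPM in Chat-neg (0.36 ± 0.23, edgeR adjusted p = 0.384). Psma4 was its lowest, at 56.6, 64.1, 115 and 117 CPM in Chat-pos libraries, against 69.8, 96.8, 155 and 101 CPM in Chat-neg (-0.35 ± 0.26, edgeR adjusted p = 0.483). Both overlapped between the gates, and Gm6542, a near-identical copy, covers 66.9% of the Psma4 transcript, so its level is uncertain.

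Among the non-catalytic beta subunits, 3 of 4 were below 0. Psmb2 had 130.0, 97.7, 161 and 259 CPM in Chat-pos libraries, against 244, 205, 243 and 274 CPM in Chat-neg. Chat-pos replicates 1 to 3 lay below every Chat-neg library and Chat-pos replicate 4 among them. The log2 difference was -0.57 ± 0.24 (edgeR adjusted p = 0.167); without Chat-pos replicate 4 it was -0.89 and passed (edgeR adjusted p = 0.0179). Psmb3 was the highest of this set in its difference, with 120.1, 83.8, 105 and 133 CPM in Chat-pos libraries, against 69.8, 125, 121 and 89.9 CPM in Chat-neg (0.04 ± 0.22, edgeR adjusted p = 0.948), and its sign turned under 6 of the alternatives.

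The 19S particle was evenly split, with 8 of 17 genes above 0 and 9 below, and none passed. The sign of its median, -0.06, turned under 8 of 18 alternatives, which ran from -0.18 to 0.19. Of the 6 ATPases, which form the ring that unfolds substrates, 4 were above 0. Psmc5 had 196, 219, 209 and 249 CPM in Chat-pos libraries, against 58.2, 157, 188 and 146 CPM in Chat-neg, groups that did not overlap (0.55 ± 0.22, edgeR adjusted p = 0.14). Psmc3 had 105, 117, 116 and 123 CPM in Chat-pos libraries, against 69.8, 109.6, 167 and 130.0 CPM in Chat-neg (-0.15 ± 0.21, edgeR adjusted p = 0.747).

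The non-ATPase genes ran in both directions, with 4 of 11 above 0. Psmd2, which encodes the large scaffold subunit Rpn1, had 22.4, 30.5, 33.6 and 31.6 CPM in Chat-pos libraries, against 11.6, 56.1, 54.4 and 56.2 CPM in Chat-neg. The 11.6 CPM of Chat-neg replicate 1 was a single read (1 count), and the other Chat-neg libraries all lay above every Chat-pos library. The log2 difference was -0.80 ± 0.27 (edgeR adjusted p = 0.0768), and Psmd2 passed without that library at -0.89 (edgeR adjusted p = 0.0282). The pseudogene Gm5422, with 0 counts, covers 91.9% of its transcript, so the level of Psmd2 is uncertain. Psmd13, a lid subunit, had 51.6, 64.5, 60.5 and 72.0 CPM in Chat-pos libraries, against 34.9, 45.9, 42.3 and 40.1 CPM in Chat-neg, without overlap, and its exons share 342 bases with Sirt3 on the other strand (0.56 ± 0.24, edgeR adjusted p = 0.171). Psmd14, the deubiquitinase that frees ubiquitin from substrates, stood at 0.51 ± 0.26, and the ubiquitin receptor Psmd4 at 0.29 ± 0.20, without passing.

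**Figure D3:**
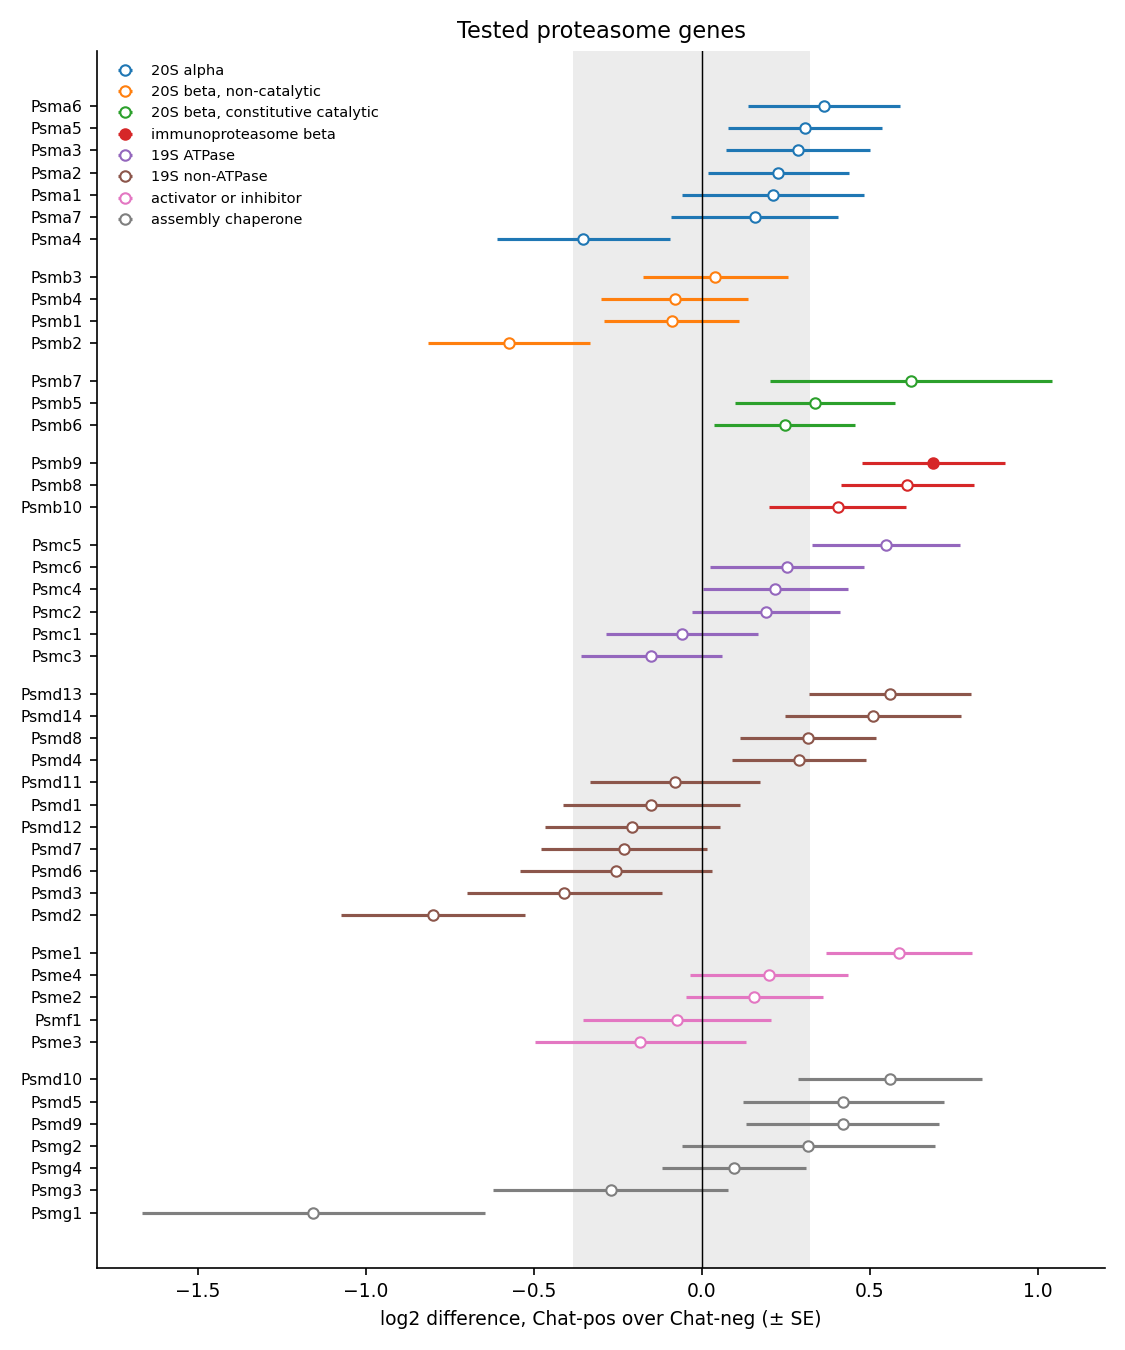
Log2 difference between Chat-pos and Chat-neg with its standard error for the 46 tested genes, grouped and coloured by class; the filled point passed the test and the grey band spans the quartiles of all 8919 genes tested. The 3 immunoproteasome genes all lie above 0 with Psmb9 filled, and the 19S genes fall on both sides from -0.80 for Psmd2 to 0.56 for Psmd13.

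Of the activators and inhibitor, Psme1 and Psme2 encode the interferon-inducible PA28 cap. Psme1 had 455, 400, 451 and 549 CPM in Chat-pos libraries, against 175, 297, 381 and 342 CPM in Chat-neg, with no overlap (0.59 ± 0.22, edgeR adjusted p = 0.105), and it passed with DESeq2 (adjusted p = 0.0469). Its partner Psme2 had 420, 355, 452 and 513 CPM in Chat-pos libraries, against 384, 316, 446 and 412 CPM in Chat-neg, overlapping groups (0.16 ± 0.20, edgeR adjusted p = 0.727). The retrogene Psme2b covers 82.5% of the Psme2 transcript, so some reads of Psme2 are uncertain. In the annotation the pair are neighbours on chromosome 14 of GRCm38, Psme1 at 55578123 to 55581529 and Psme2 at 55587441 to 55591113.

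The other 3 overlapped between the gates. Psme4, which encodes the activator PA200, had 57.2, 70.3, 68.5 and 71.1 CPM in Chat-pos libraries, against 23.3, 57.3, 64.7 and 62.6 CPM in Chat-neg (0.20 ± 0.24, edgeR adjusted p = 0.693). The nuclear activator Psme3 had 26.1, 20.6, 28.8 and 21.5 CPM in Chat-pos libraries, against 11.6, 25.5, 27.6 and 33.7 CPM in Chat-neg (-0.18 ± 0.32, edgeR adjusted p = 0.803). Psmf1, first described as an inhibitor of the core, had 40.4, 49.3, 26.9 and 65.6 CPM in Chat-pos libraries, against 69.8, 39.5, 51.8 and 46.5 CPM in Chat-neg (-0.07 ± 0.28, edgeR adjusted p = 0.922), and its sign turned under 4 of the alternatives.

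The assembly chaperones were the most widely spread class, from -1.16 to 0.56, with 5 of 7 above 0 and none past the test. Psmg1, which pairs with Psmg2 to build the alpha ring, had 1.24, 10.8, 14.6 and 5.05 CPM in Chat-pos libraries, against 11.6, 19.1, 18.99 and 17.6 CPM in Chat-neg. Chat-pos replicate 3 reached into the Chat-neg range (-1.16 ± 0.51, edgeR adjusted p = 0.189). Without the 2 Paneth-rich Chat-pos libraries the difference was -2.29 and passed (edgeR adjusted p = 0.0441). Psmd10, a chaperone of the 19S base also known as gankyrin, had 51.6, 41.2, 40.2 and 38.7 CPM in Chat-pos libraries, against 11.6, 30.6, 31.1 and 28.9 CPM in Chat-neg, without overlap (0.56 ± 0.27, edgeR adjusted p = 0.24). In all, 7 of the 46 tested members had every Chat-pos library above every Chat-neg library, against 8.58% of all genes, and none the reverse, against 5.42%.

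Relative to the core within a library, the immunoproteasome genes averaged 0.206 ± 0.0224 in Chat-pos, against 0.160 ± 0.0264 in Chat-neg. The summed level per kb of Psmb8, Psmb9 and Psmb10 over that of the 14 constitutive core genes was 0.233, 0.208, 0.206 and 0.178 in Chat-pos and 0.199, 0.140, 0.147 and 0.155 in Chat-neg. Chat-neg replicate 1 alone overlapped the Chat-pos values. The ratio of the 19S genes to the core was 0.337 ± 0.0251 in Chat-pos and 0.310 ± 0.0210 in Chat-neg, with overlap. The ratio of Psme1 plus Psme2 to the core was 0.334, 0.291, 0.313 and 0.289 in Chat-pos and 0.330, 0.235, 0.266 and 0.250 in Chat-neg, where again only Chat-neg replicate 1 reached the Chat-pos range. These ratios are descriptions and were not tested.

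**Figure D4:**
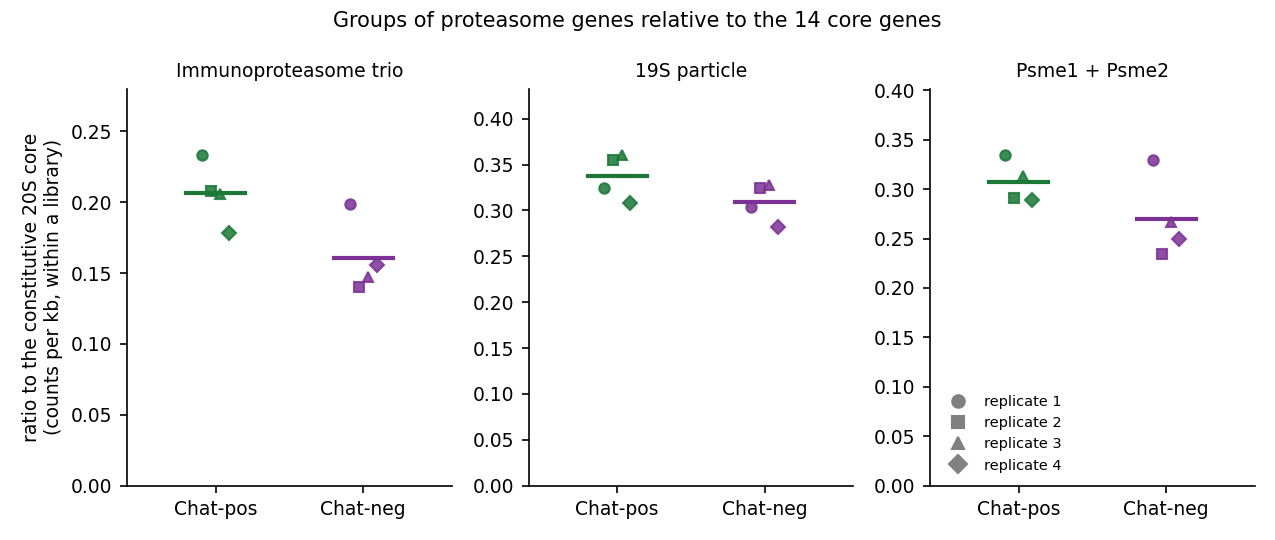
Summed counts per kb of the immunoproteasome trio, the 19S genes and Psme1 plus Psme2, each over the sum of the 14 constitutive core genes in the same library; bars are means over 4 libraries. In the left and right panels 3 of 4 Chat-neg points lie below all Chat-pos points and replicate 1 does not, and in the middle panel the gates overlap, at 0.337 in Chat-pos and 0.310 in Chat-neg on average.

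Although subunits of the core stand in equal numbers in the particle, their transcripts differed widely in level per length. Psmb6 was the most abundant of the 46 tested members, at 654 ± 73.7 CPM per kb in Chat-pos libraries, against 541 ± 130.0 CPM per kb in Chat-neg (SD, n = 4 each). Psme2 came second (452 ± 68.5 and 405 ± 57.5 CPM per kb in Chat-pos and Chat-neg), followed by Psma7 (407 ± 33.9 and 347 ± 159), Psma6 (426 ± 91.3 and 321 ± 100.2) and Psme1 (417 ± 55.8 and 268 ± 80.4). The order among these 4 is within their spread. Psmb10 ranked 7, at 291 ± 19.5 CPM per kb in Chat-pos libraries, against 214 ± 49.1 CPM per kb in Chat-neg, above 11 of the 14 constitutive core genes.

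Psmb8 and Psmb9 ranked 13 and 15, and Psmb5 ranked 20, at 92.3 ± 17.4 CPM per kb in Chat-pos libraries, against 71.3 ± 15.7 CPM per kb in Chat-neg. Psmb7 was the lowest core gene, ranked 36, at 23.2 ± 12.1 CPM per kb in Chat-pos libraries, against 14.4 ± 4.56 CPM per kb in Chat-neg. The 19S genes ranked from 14 (Psmc5) to 42 (Psmd2), and all 6 ATPases stood above 8 of the 11 non-ATPases. The lowest ranks fell to Psmg1, Psme3, Psme4 and Psmd5, the last at 9.87 ± 1.08 CPM per kb in Chat-pos libraries, against 6.20 ± 4.02 CPM per kb in Chat-neg. Lengths are those of the principal annotated transcript, and the isoforms used in these cells were not measured.

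**Figure D5:**
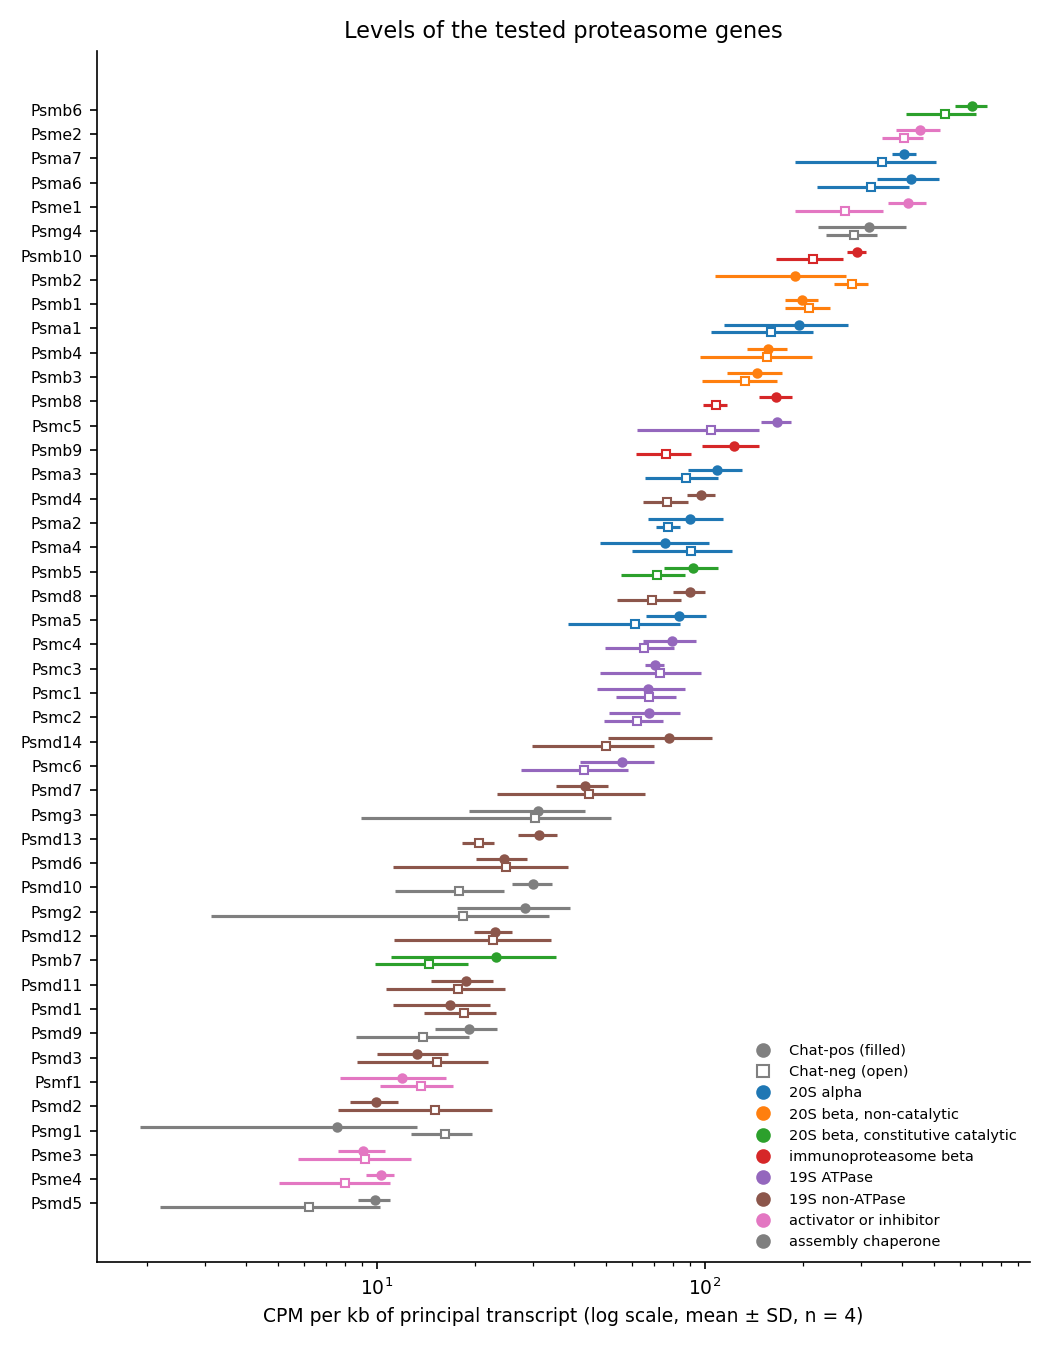
CPM per kb of principal transcript on a log axis for the 46 tested genes, ordered by their mean over all 8 libraries; filled circles are Chat-pos means, open squares Chat-neg means and bars SD over 4 libraries. Psmb6 leads at 654 and 541 CPM per kb in Chat-pos and Chat-neg, Psmb10 stands among the upper core genes and Psmb7 among the lowest members.

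The 8 members left out by the filter were near 0 in both gates. Over all libraries Psma8 and Psmb11 had 6 counts each, Psmc3ip, a meiotic recombination factor that shares only the name, had 13, and Psme2b had 8. The pseudogenes Psmb6-ps and Psmb5-ps had 11 and 4, and Psmb6-ps2 and Psmb7-ps2 had 0.

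Some libraries stood high or low over many members. Chat-pos replicate 4 was the highest Chat-pos library for 26 of the 46 tested members, and Chat-neg replicate 3 the highest Chat-neg library for 23. Chat-neg replicate 1 was the lowest of its gate for 34, where its median count per member was 6, against 62 to 133 in the other Chat-neg libraries and 139 to 318 in Chat-pos.

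Genes that work with the proteasome were described in 4 lists. Of 15 tested genes for further subunits, assembly and recovery factors, none passed, against 6.49% of all genes tested, and 4 were above 0, against 48.5% of all genes tested. The list includes Pomp, the core maturation protein, at 256 ± 50.3 CPM in Chat-pos libraries, against 281 ± 48.0 CPM in Chat-neg, and the 19S subunit Sem1, at 448 ± 55.0 CPM in Chat-pos libraries, against 486 ± 53.4 CPM in Chat-neg. Nfe2l1, the transcription factor that restores proteasome genes when the particle is inhibited, had 37.3, 20.6, 25.5 and 31.1 CPM in Chat-pos libraries, against 58.2, 38.2, 58.7 and 43.3 CPM in Chat-neg. These groups did not overlap, and the gene did not pass (-0.76 ± 0.28, edgeR adjusted p = 0.101). Of 15 genes for ubiquitin receptors and the segregase Vcp with its cofactors, none passed, against 6.49% of all genes tested, and 6 were above 0, against 48.5%.

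Of 6 genes for ubiquitin and its activating enzymes, 1 rose, against 3.62% of all genes tested, and 1 fell, against 2.87%. Ubb, a polyubiquitin gene, rose, with 1051, 932, 1096 and 1416 CPM in Chat-pos libraries, against 407, 654, 748 and 820 CPM in Chat-neg (0.75 ± 0.22, edgeR adjusted p = 0.0368). Rps27a, which encodes ubiquitin fused to a ribosomal protein, fell, with 178, 181, 146 and 162 CPM in Chat-pos libraries, against 314, 278, 325 and 483 CPM in Chat-neg (-1.08 ± 0.21, edgeR adjusted p = 0.00166). Neither overlapped between the gates. Uba1 and Uba6, which encode ubiquitin-activating enzymes, did not pass.

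Of 14 genes for class I peptide supply and interferon control of the immunoproteasome, 2 rose, against 3.62% of all genes tested, and 10 were above 0, against 48.5%. Their median was 0.35, against -0.02 for all genes tested. Irf1, a transcription factor known to drive Psmb9, had 316, 299, 350 and 370 CPM in Chat-pos libraries, against 279, 185, 189 and 215 CPM in Chat-neg, with no overlap (0.67 ± 0.20, edgeR adjusted p = 0.0438). B2m, the light chain of class I, was the other gene that rose, at 6389 ± 1295 CPM in Chat-pos libraries, against 2597 ± 507 CPM in Chat-neg (1.30 ± 0.22, edgeR adjusted p = 0.000445). Nlrc5, the class I transactivator, had 15.7 ± 1.73 CPM in Chat-pos libraries, against 11.4 ± 2.19 CPM in Chat-neg (0.48 ± 0.42, edgeR adjusted p = 0.579).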

How the data were processed

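Epithelial cells were stained and sorted, cDNA was amplified with SMARTer v4 reagents, and Nextera XT libraries were sequenced for 74 cycles from 1 end, per the labels' protocols. The authors deposited raw counts per gene symbol, in a single table on GRCm38 as the submitters' processing notes name the build. Their aligner, counter and annotation: not given in the sources used here. Of 53806 rows, 36 had no gene name and were dropped (58.6% to 64.6% of counts in Chat-pos, 67.8% to 88.4% in Chat-neg). The 229 rows sharing symbols were summed.

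Libraries were grouped by the labelled cell population. edgeR 4.0.16 (R 4.3.3) was run with filterByExpr, TMM scaling and a robust quasi-likelihood model of the 2 groups, and p-values were adjusted by Benjamini-Hochberg over 8919 genes (threshold 0.05). CPM are counts per 1000000 of TMM-scaled totals of those genes. Each standard error is the log2 difference over the square root of its F statistic. Transcript lengths and shared exons came from GENCODE M21, and copies from blastn 2.17.0 (95% identity over 74 bases or more). Alternatives used other scalings and filters, DESeq2 1.42.0, limma-voom (limma 3.58.1), the replicate number as a block and each library left out, and 2 were chosen after seeing the data: leaving out Chat-pos replicates 2 and 3, and totals over all named rows.

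Per-library values are printed for Psmb5 to Psmb10, Psme1 to Psme4, Psmf1, called members, and the highest and lowest difference in each class; of related genes, called ones are named, and further genes of those lists were chosen after their values were seen. Members and lists were chosen with earlier results of these data known. Some genes of the related lists are not reported here.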

Additional observations from a re-analysis of the deposited data

Results flagged for a closer look

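In 2 of 60 groups of 4 libraries checked, 1 library lay far from the other 3, where chance gives about 1 in 20. Psmd2 stood at 11.6 CPM in Chat-neg replicate 1, against 54.4 to 56.2 CPM in the other Chat-neg libraries. Psmd10 stood at 11.6 CPM in the same library, against 28.9 to 31.1 CPM in the others. Each of these values was 1 count in the shallowest library.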

How the results depend on the processing

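Over all genes, 323 were higher and 256 lower. Lower calls numbered 143 with no filter, 402 with limma-voom and 86 without the 2 Paneth-rich Chat-pos libraries, and leaving out 1 library gave 138 to 360 higher and 110 to 309 lower. Members called higher (1, Psmb9) numbered 2 with RLE, limma-voom or totals over all named rows, 3 with DESeq2, 0 with total count scaling, no filter or at least 5 CPM in 4 libraries, and 0 to 2 with 1 library left out; among immunoproteasome genes the counts were 2, 2 and 2, 2 with DESeq2, 0, 0 and 0, and 0 to 2. DESeq2 also called 1 activator, Psme1. Members called lower (0) numbered 1 with total count scaling or limma-voom (Psmd2, of the 19S particle), 1 without the Paneth-rich libraries (Psmg1, an assembly chaperone), and 0 to 1 with 1 library left out, in the core (Psmb2) as in the 19S particle (Psmd2). With no filter the median log2 difference was 0.84 for the immunoproteasome and 0.40 for the activators. The sign of Psmb3 turned with total count scaling (-0.080), limma-voom (-0.066) and 4 left-out libraries (-0.060 to 0.17 over 8); that of Psmc3 with no filter (0.069) and without Chat-neg replicate 3 (-0.23 to 0.090 over 8); that of Psme3 with no filter (0.014); that of Psmf1 with no filter (0.13), without the Paneth-rich libraries (0.26) and in 2 left-out fits (-0.30 to 0.14 over 8). The cause was not tested. Depth in Chat-neg replicate 1 limits every low member.

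Replicate numbers are shared between gates, and the labels do not say whether libraries of the same number were paired. Correlations of same-numbered deviations were 0.051, 0.0305, -0.0223 and -0.0102, and 1 of 4 correlated best with its own number. Libraries also differed in depth and in Paneth cell transcripts, so these values cannot decide whether they were paired. With the replicate block, Psmb9 stood at 0.69 (edgeR adjusted p = 0.049) and 1 member was called higher.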
